A study of Mus musculus with 12 samples.

Results

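The expression of 10 genes that mark the walls of blood vessels was followed in mouse forebrain. Of these, 8 are known mainly from endothelial cells, which line the vessels, and 2 from pericytes, the cells wrapped around capillaries. A gene's probe sets were taken as members wherever the platform annotation gave one of these symbols, without regard to their values. The 10 genes were read by 20 of the 45101 probe sets, and each probe set was treated on its own. Of these, 16 probe sets of 9 genes passed the filter on low values (a log2 value over 4 on at least 3 of the 12 arrays) and were tested. Kdr, with 1 probe set, and 1 probe set each of Flt1, Flt4 and Rgs5 did not pass.

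The series holds 4 groups of 3 arrays, all of strain 129/Sv and with no treatment recorded. Adult mutants were males homozygous for a gene trap in Qkf (Qkf gt/gt), aged 155, 112 and 99 days, and adult wild types were males aged 155, 112 and 101 days. Dorsal cerebral cortex was taken from both. Mutant and wild-type embryos were Qkf gt/gt and wild type at E12.5, and their dorsal telencephalon was taken. Qkf is an older name of Kat6b. Its product acetylates histones, and the comparison asks which genes depend on it at each stage. The gene trap sits in the germ line, so every cell of a mutant carried it and not the vessel cells alone. The adults have a mouse number each. The embryos are labelled only by their parents, 1 mutant and 1 wild type from a first cross and 2 of each from a second, and the sources used here do not say whether an array held 1 embryo or several. P-values below measure the spread between these samples.

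Facts of the arrays that bear on the vessel genes are few. Kat6b, the targeted gene, was lower in all mutants on probe set 1423508_at, at 6.92 to 7.25 in adult mutants against 9.35 to 9.72 in adult wild types and at 6.22 to 7.72 in mutant embryos against 11.28 to 11.42 in wild-type embryos. The log2 difference was -2.47 in adults (adjusted p = 0.0242) and -4.31 in embryos (adjusted p = 1.84e-04). On 1447758_x_at it was -0.40 (adjusted p = 1.00) and -2.82 (adjusted p = 3.86e-05), and 1446189_at stood at 2.19 on every array. As a measure of RNA integrity, the 3′ minus 5′ signal of the actin control was 1.91, 1.47 and 1.09 in adult mutants against 1.06 to 1.13 in adult wild types. For the Gapdh control it was 0.26, -0.06 and -0.11 in adult mutants against -0.15 to -0.08 in adult wild types. A list of 5 choroid plexus genes averaged 6.68 in adult mutant 3 and 3.73 to 4.12 in the other adults. Both embryos of the first cross read 10.78 for Ttr, a choroid plexus gene, on probe set 1454608_x_at, against 13.53 to 14.06 in the other embryos. A meningeal list averaged 7.27 and 6.91 in those 2 embryos and 7.55 to 7.82 in the others. Xist, which marks female cells, was high in mutant embryo 3 and in wild-type embryos 1 and 2. The array names carry 1 run label for all adults, another for 5 embryos and one of its own for mutant embryo 1, so that stage and array run cannot be told apart.

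Brain capillaries are tubes of endothelial cells sealed by tight junctions and covered by pericytes. Endothelial cells are steered by secreted VEGF, which binds the receptors encoded by Flt1, Kdr and Flt4, and by angiopoietins, which bind Tek with Tie1 as its partner. They draw in pericytes by releasing PDGF-B, which binds the receptor encoded by Pdgfrb. At mid-gestation in the mouse, vessels grow into the telencephalon from a plexus on its surface and the blood-brain barrier begins to form, and it matures until after birth. These arrays measured whole tissue, in which fewer cells of a type and less RNA per cell cannot be told apart.

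The promoters of 4 of the members that differed between the stages, in opposite directions, are shown first. Rgs5 and Flt1 were higher in adult cortex, and Tie1 and Slc2a1 were higher in the embryo. Each runs 5′ to 3′ on the gene's strand from 250 bases before the RefSeq start to 50 after it, on build GRCm38.p6. Rgs5 lies at chr1:169655251-169655550 on the plus strand, Flt1 at chr5:147725962-147726261 on the minus strand, Tie1 at chr4:118489800-118490099 on the minus strand and Slc2a1 at chr4:119108495-119108794 on the plus strand. In Rgs5, Flt1 and Tie1 the capitals mark GGAA or its reverse complement TTCC, the core read by ETS factors, a family with many regulators of endothelial genes. In Slc2a1 they mark ACGTG, the core read by hypoxia-inducible factors, and TATAAA.
Rgs5: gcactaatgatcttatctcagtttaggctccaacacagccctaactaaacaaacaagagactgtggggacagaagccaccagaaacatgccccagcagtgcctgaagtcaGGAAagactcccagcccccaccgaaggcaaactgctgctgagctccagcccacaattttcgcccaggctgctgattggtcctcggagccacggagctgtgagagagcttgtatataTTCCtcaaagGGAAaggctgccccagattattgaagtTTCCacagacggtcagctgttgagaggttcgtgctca
Flt1: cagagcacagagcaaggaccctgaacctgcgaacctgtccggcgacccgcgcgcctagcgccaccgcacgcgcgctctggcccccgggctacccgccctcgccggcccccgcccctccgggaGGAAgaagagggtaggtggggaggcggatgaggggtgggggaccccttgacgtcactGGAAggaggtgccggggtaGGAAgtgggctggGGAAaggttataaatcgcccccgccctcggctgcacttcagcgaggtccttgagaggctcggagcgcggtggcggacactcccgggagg
Tie1: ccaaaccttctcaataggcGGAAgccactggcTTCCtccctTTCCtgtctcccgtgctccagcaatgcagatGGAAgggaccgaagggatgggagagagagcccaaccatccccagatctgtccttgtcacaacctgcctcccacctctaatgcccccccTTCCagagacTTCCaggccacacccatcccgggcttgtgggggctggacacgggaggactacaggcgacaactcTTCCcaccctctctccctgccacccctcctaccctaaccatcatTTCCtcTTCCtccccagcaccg
Slc2a1: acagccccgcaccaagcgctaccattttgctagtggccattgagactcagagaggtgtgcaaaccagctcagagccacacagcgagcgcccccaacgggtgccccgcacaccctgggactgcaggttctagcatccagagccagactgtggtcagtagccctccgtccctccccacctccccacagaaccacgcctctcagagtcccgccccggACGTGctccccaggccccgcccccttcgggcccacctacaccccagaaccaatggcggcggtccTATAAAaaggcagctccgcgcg
GGAA or TTCC stood 4 times in the Rgs5 window, 4 times in that of Flt1, 9 times in that of Tie1 and 0 times in that of Slc2a1. Among members not shown, it stood 0 times in the window of Cldn5, which was also higher in adult cortex. The windows of Tek and Flt4 held 2 each and that of Kdr held 5. Of 32851 RefSeq promoters of the same length, 96.0% held at least 1 such match, with a median of 3, and 1.59% held 9 or more. ACGTG or its reverse complement CACGT stood once in Slc2a1 and in none of the other 3 windows shown, and 19.6% of all promoters held it. TATAAA or TTTATA stood once each in Slc2a1 and Flt1, and 13.6% of all promoters held it. These are matches of letters, and no binding was measured.

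**Figure D1:**
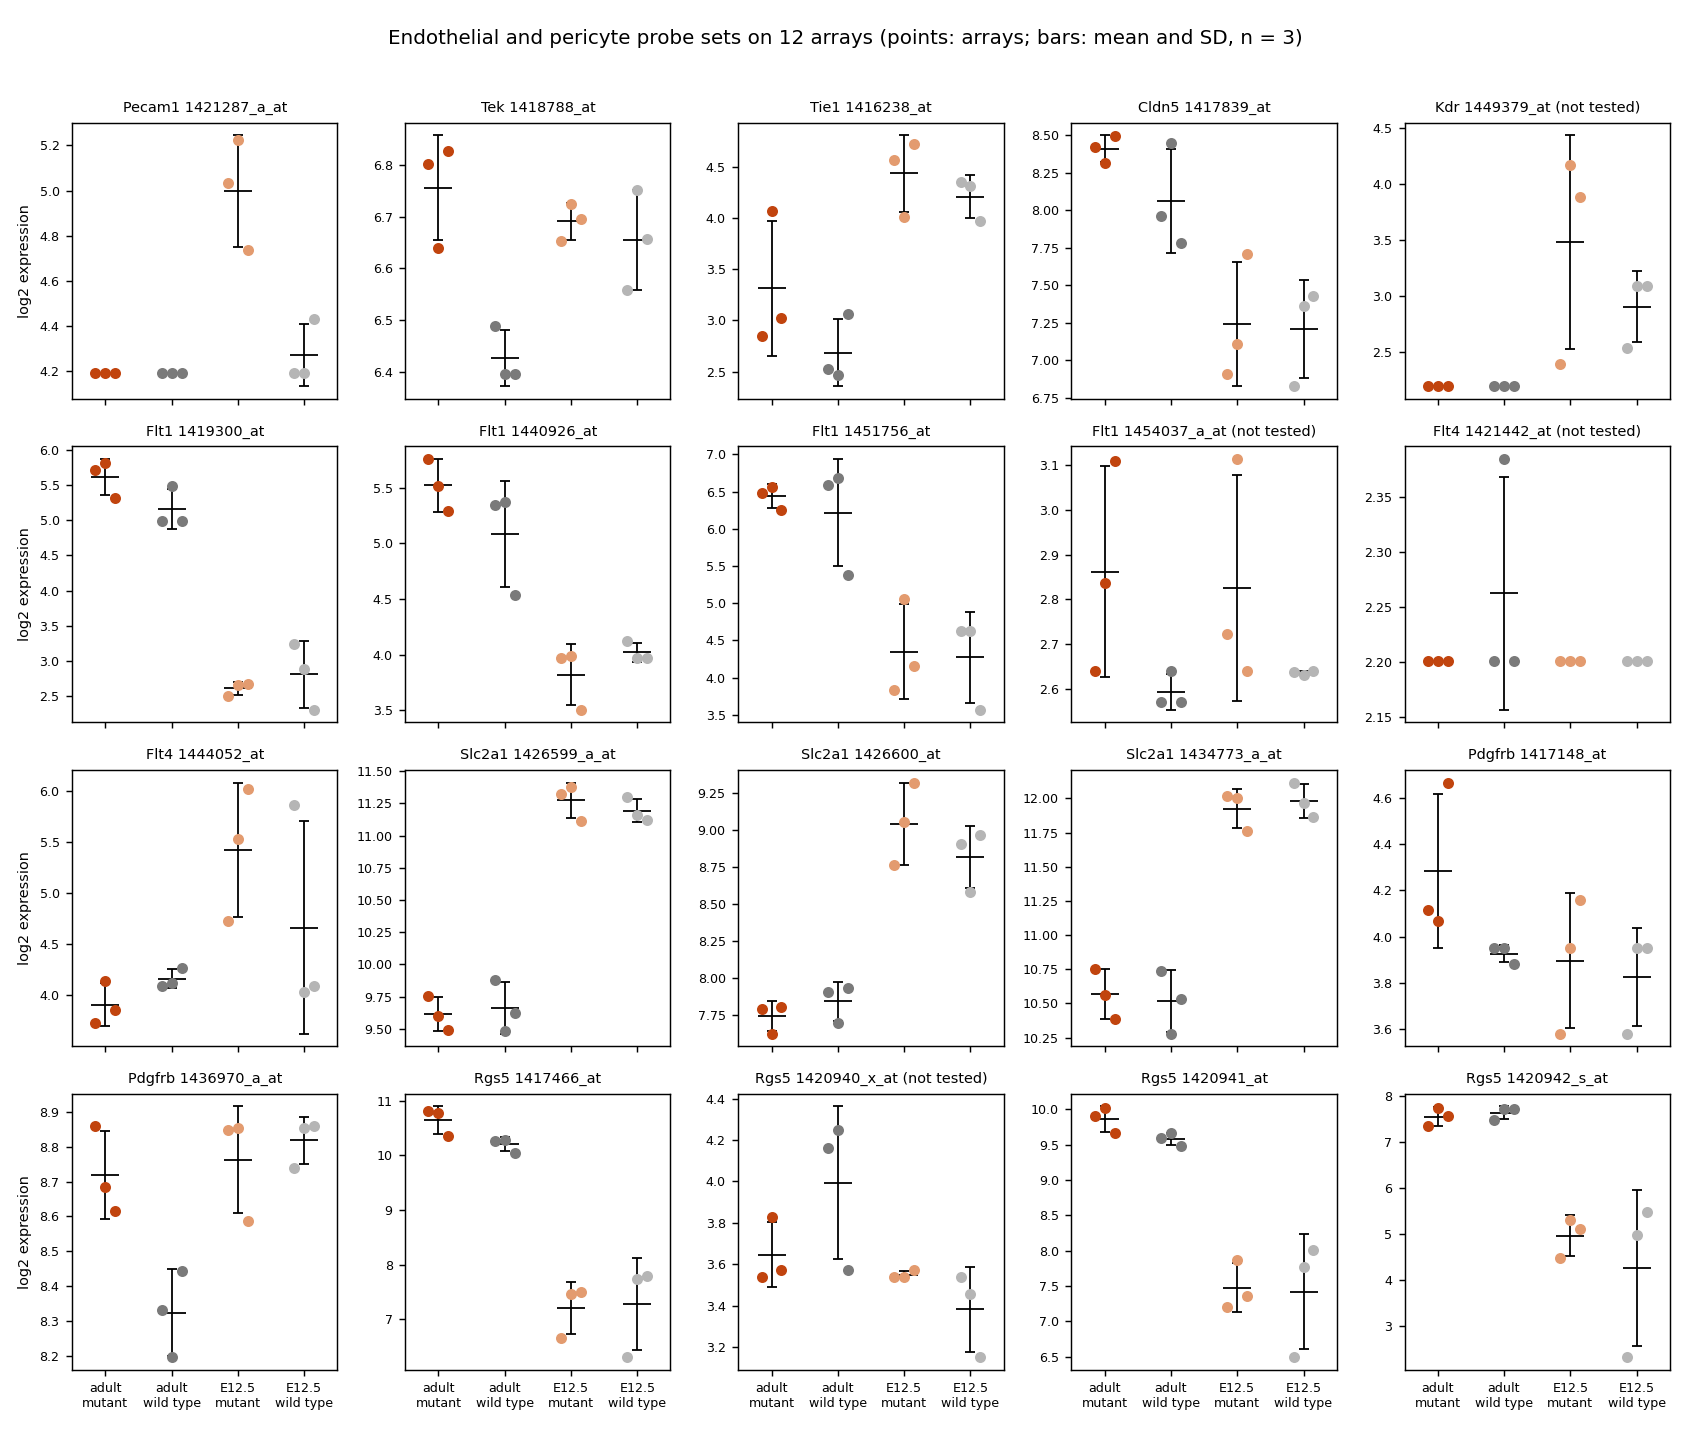
Log2 expression (y axis, a separate scale for each panel) of the 20 endothelial and pericyte probe sets in adult mutants, adult wild types, E12.5 mutants and E12.5 wild types. Points are arrays and bars are the mean and SD of 3 arrays. The Flt1 and Rgs5 panels that were tested are high in both adult groups, the Slc2a1 panels are high in both embryonic groups, and the 6 adult arrays share 1 value in the Pecam1 panel.

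Between mutants and wild types, no member probe set passed the test at either stage. In adult cortex 0 of the 16 were called at an adjusted p under 0.05, against 0.0246% of all 20292 tested probe sets. At E12.5 0 of 16 were called, against 0.0641%, and in the test of whether the effect of the mutation differed between the stages 0 of 16 were called, against 0.0148%. At an unadjusted p under 0.05 the members counted 2 in adults, 1 in embryos and 2 for the difference between stages, where all tested probe sets gave 4.58%, 4.53% and 5.35%. The member medians of the log2 difference, mutant minus wild type, were 0.31 in adults and 0.06 in embryos, beside 0.02 and -0.01 over all tested probe sets. In adults 11 of the 16 differences were above 0, where 55.2% of all were, and in embryos also 11 of 16, where 47.3% were. Probe sets of 1 gene share its RNA, so these counts do not stand for as many separate genes.

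Every adult mutant array lay above every adult wild-type array for 5 of the 16 tested member probe sets, which read Tek, Pdgfrb (2 probe sets) and Rgs5 (2 probe sets). Over all tested probe sets 6.19% showed that order. Pdgfrb 1417148_at was over log2 4, the level of the filter, on every adult mutant, on no adult wild type and on 1 embryo. It was tested because of the group in which it was high, so the filter partly fixed its place in this count. No member showed the opposite order in adults, which 3.45% of all did. In embryos 1 member, Pecam1, had all mutants above all wild types, where 3.19% of all did, and none had all mutants below, where 4.46% did.

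Adult minus embryo, most members changed in both genotypes, as did most of the array. In wild types 13 of 16 probe sets, of 7 genes, were called, against 79.3% of all tested probe sets, and in mutants 13 of 16, of 7 genes, against 79.5%. In each genotype 7 probe sets were higher in adults, where 35.7% of all were in wild types and 36.5% in mutants. In each genotype 6 were lower, where 43.5% of all were in wild types and 43.0% in mutants. Every adult array lay above every embryonic one for 7 members in wild types and 7 in mutants, where 37.6% and 36.9% of all did. It lay below for 6 in wild types and 5 in mutants, where 45.1% and 43.3% did. The shares called are near those of all probe sets, and what follows is which genes took which direction. Rgs5, Flt1 and Cldn5 were higher in adults in both genotypes, and Slc2a1 and Tie1 were lower in both. Flt1 1419300_at was over log2 4, the level of the filter, on 0 of the 6 embryonic arrays, Flt1 1440926_at on 1 of them and Tie1 on 1 of the 6 adult arrays. These 3 probe sets were tested because of the stage in which they were high. The size of their difference is set against values mostly under the level of the filter.

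**Figure D2:**
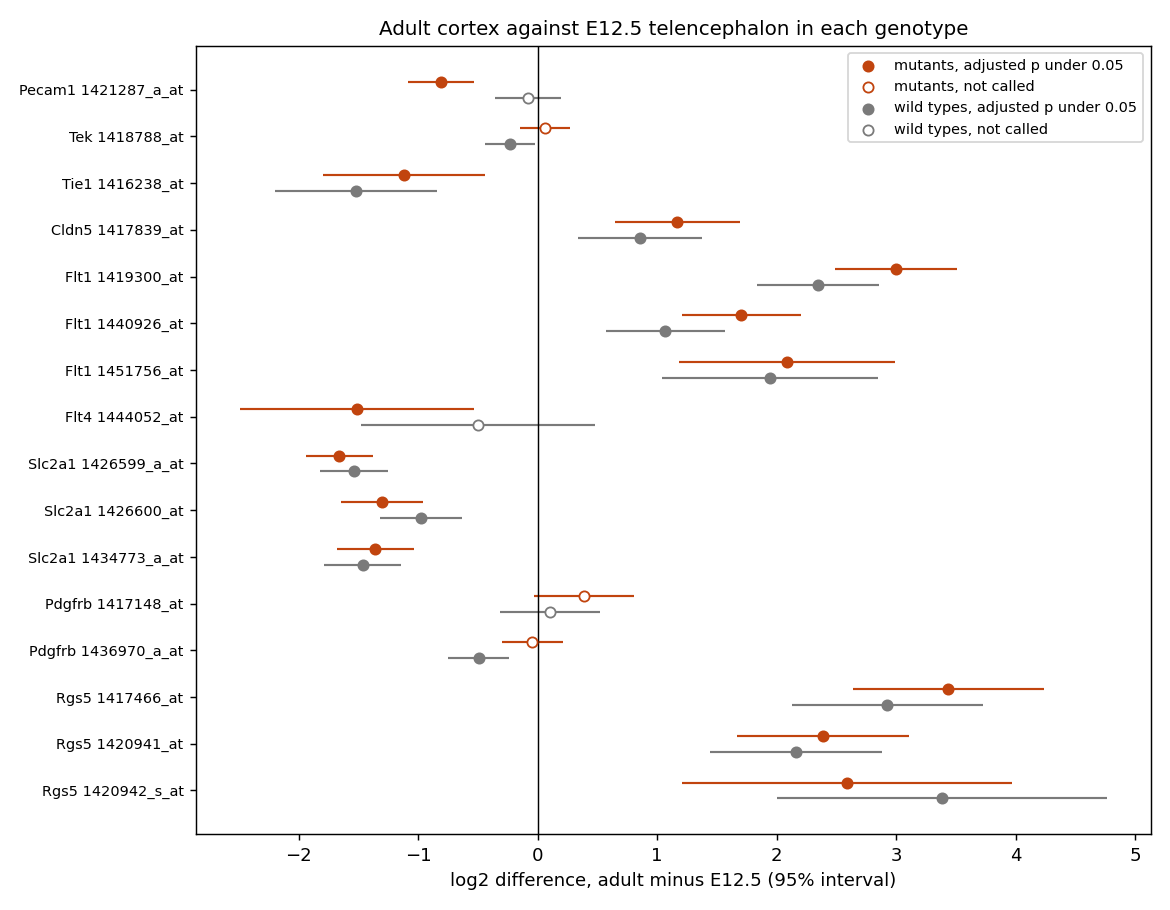
Log2 difference, adult cortex minus E12.5 telencephalon (x axis), for the 16 tested probe sets, with mutants above wild types in each row. Points are estimates, lines are 95% intervals and filled points passed an adjusted p of 0.05. Rgs5 reaches 3.44 in mutants on 1417466_at, where wild types stand at 2.92. It reaches 3.38 in wild types on 1420942_s_at, where mutants stand at 2.59. Slc2a1 lies between -1.66 and -0.98.

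Pecam1 encodes an adhesion molecule at the contacts between endothelial cells. Its probe set 1421287_a_at read 5.03, 5.23 and 4.74 in mutant embryos, against 4.19, 4.19 and 4.43 in wild-type embryos. All mutant embryos lay above all wild-type embryos. The difference was 0.73 (SE 0.13, 95% interval 0.45 to 1.01), with an unadjusted p of 1.30e-04 and an adjusted p of 0.110, which missed the threshold. Wild-type embryos 1 and 2 stood at the lowest value of this probe set. The size of the difference is set mostly against that value, so no fold is given. The fit shares 1 spread over the 4 groups. The SD of Pecam1 was 0 in both adult groups, 0.25 in mutant embryos and 0.14 in wild-type embryos. Its SE, interval and p therefore rest in part on adult arrays without spread. Without mutant embryo 3, the lowest of the 3, the difference was 0.86 with an adjusted p of 0.0325, and over the other alternatives the adjusted p lay between 0.0751 and 1.00. Within the first cross the difference was 0.84, from 1 array each, and within the second 0.67, from 2 arrays each.

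All 6 adult arrays read exactly the same value for Pecam1, 4.19, as did wild-type embryos 1 and 2. That value, identical to 8 decimals, was the lowest of this probe set on 8 of the 12 arrays. Among tested probe sets 0.296% had a lowest value shared by at least 8 arrays. Repeated values of this kind have no spread, so that the adult difference of 0 shows no order between mutants and wild types, and the fall in adults against embryos (-0.81 in mutants, adjusted p = 1.06e-04) is measured from that lowest value. In wild types adult minus embryo was -0.08 (adjusted p = 0.575). The test of whether the effect of the mutation differed between the stages gave -0.73, adult minus embryo (unadjusted p of 0.00186, adjusted p of 0.636). With the adult difference held at 0 by repeated values, this is the embryonic difference with its sign turned. It cannot show whether the effect differs between the stages.

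Cldn5 encodes claudin-5, the main claudin of tight junctions in brain endothelium. On 1417839_at it read 8.42, 8.31 and 8.495 in adult mutants and 7.96, 8.45 and 7.78 in adult wild types. The embryos read 6.91, 7.11 and 7.71 as mutants and 6.83, 7.36 and 7.43 as wild types. Every adult lay above every embryo, while mutants and wild types overlapped at both stages. Adult minus embryo, Cldn5 was 2.25-fold higher in mutants (log2 1.17, SE 0.24, adjusted p = 7.80e-04) and 1.81-fold higher in wild types (0.86, SE 0.24, adjusted p = 0.00604). The mutant difference was 0.35 in adults (95% interval -0.17 to 0.87) and 0.03 in embryos (-0.49 to 0.56).

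Tek encodes the angiopoietin receptor Tie2. Its probe set 1418788_at read 6.80, 6.64 and 6.83 in adult mutants against 6.49, 6.39 and 6.40 in adult wild types. The mutants were all higher, by a difference of 0.33 (SE 0.09, 95% interval 0.12 to 0.54), or 1.26-fold, with an unadjusted p of 0.00531 and an adjusted p of 0.793 that missed the threshold. Within the 3 age pairs the difference was 0.31, 0.25 and 0.43, and without adult mutant 3, the array with the high choroid plexus list, it was 0.29. Without adult mutant 1, which had the largest actin 3′ to 5′ difference, it was 0.31. Whether RNA quality had a part in it was not tested.

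Embryos read 6.65, 6.72 and 6.69 for Tek as mutants and 6.56, 6.75 and 6.66 as wild types, and these overlapped (difference 0.04, 95% interval -0.17 to 0.25). The effect of the mutation on Tek was 0.29 larger in adults than in embryos, with an unadjusted p of 0.0514 and an adjusted p of 0.922. Adult wild types were 1.17-fold below wild-type embryos (-0.23, adjusted p = 0.0444). That call was lost, at adjusted p values up to 0.152, when any 1 of 8 arrays was left out. In mutants adult minus embryo was 0.07 (95% interval -0.14 to 0.27, adjusted p = 0.541).

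Tie1, the partner of Tek, which binds no angiopoietin strongly itself, read 2.85, 4.06 and 3.02 in adult mutants and 2.53, 2.46 and 3.06 in adult wild types on 1416238_at. In embryos it read 4.56, 4.01 and 4.72 in mutants and 4.35, 4.31 and 3.97 in wild types. Adult mutant 2 stood above the other adults and within the range of the embryos. Adult minus embryo, the log2 difference was -1.12 in mutants (SE 0.31, adjusted p = 0.00571) and -1.52 in wild types (adjusted p = 7.53e-04). With 5 of the 6 adults under the level of the filter, no fold is given, and the probe set passed the filter mainly through its embryonic values. The adult mutant difference of 0.63 (SE 0.31, 95% interval -0.05 to 1.30) was 0.25 without adult mutant 2, so that it rests largely on that array. The embryonic difference was 0.23 (-0.45 to 0.90).

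Flt1 encodes VEGF receptor 1, which binds VEGF-A tightly, signals weakly and also exists as a soluble decoy. It had 4 probe sets, of which 3 were tested and agreed in their course over the 12 arrays (Pearson's r between 0.93 and 0.95, with stage shared by all points). Probe set 1419300_at read 5.71, 5.81 and 5.32 in adult mutants and 4.995, 5.49 and 4.995 in adult wild types. In embryos it read 2.51, 2.66 and 2.67 in mutants and 3.24, 2.89 and 2.30 in wild types. All adults lay more than 1 log2 unit above all embryos, and every embryo was under the level of the filter.

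Adult minus embryo, the log2 difference of this Flt1 probe set was 3.00 in mutants (SE 0.23, adjusted p = 2.40e-07) and 2.35 in wild types (adjusted p = 2.07e-06). It passed the filter through the adult arrays alone, so no fold is given. The other tested probe sets, 1440926_at and 1451756_at, gave differences of 1.70 and 2.09 in mutants and 1.07 and 1.95 in wild types, all past the test. On 1451756_at 4 of the 6 embryos were over the level of the filter. The mutant effects of the 3 probe sets were 0.45, 0.44 and 0.22 in adults, with intervals that all included 0, and -0.20, -0.20 and 0.08 in embryos. Without adult wild type 3 the adult effect was 0.16 on 1440926_at and -0.20 on 1451756_at, so that the direction of the last depends on that array. Probe set 1454037_a_at, which did not pass the filter, stayed between 2.57 and 3.11 on all arrays and showed no such course.

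Kdr encodes VEGF receptor 2, the main signalling receptor for VEGF-A in endothelium. Its probe set 1449379_at read 2.19, the lowest value of the arrays, on all 6 adult arrays. In embryos it read 2.39, 4.17 and 3.89 in mutants and 2.53, 3.09 and 3.09 in wild types. It was over 4 on 1 array only and was not tested. Mutant minus wild type, the embryonic difference was -0.14 in the first cross and 0.94 in the second.

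Flt4 encodes VEGF receptor 3, which binds VEGF-C and VEGF-D and is known from lymphatic and sprouting endothelium. Probe set 1444052_at read 4.72, 5.53 and 6.02 in mutant embryos and 5.86, 4.03 and 4.09 in wild-type embryos. The first cross, with 1 array of each genotype, gave a mutant difference of -1.13, and the second, with 2 of each, gave 1.71. Over both crosses the difference was 0.76 (SE 0.44, 95% interval -0.22 to 1.74, adjusted p = 1.00). With the first cross left out it was 1.71 with an adjusted p of 0.0111, so that the call depends on 2 arrays.

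In adults this Flt4 probe set read 3.73, 4.14 and 3.86 in mutants and 4.09, 4.12 and 4.27 in wild types. Adult minus embryo, it fell by 1.51 in mutants (2.86-fold, adjusted p = 0.00837), and in wild types the difference was -0.50 (95% interval -1.48 to 0.48, adjusted p = 0.319). The other probe set, 1421442_at, read 2.20 on 11 arrays and 2.38 on adult wild type 2. It did not follow 1444052_at over the arrays (r = -0.16), so the embryonic signal rests on 1 probe set.

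**Figure D3:**
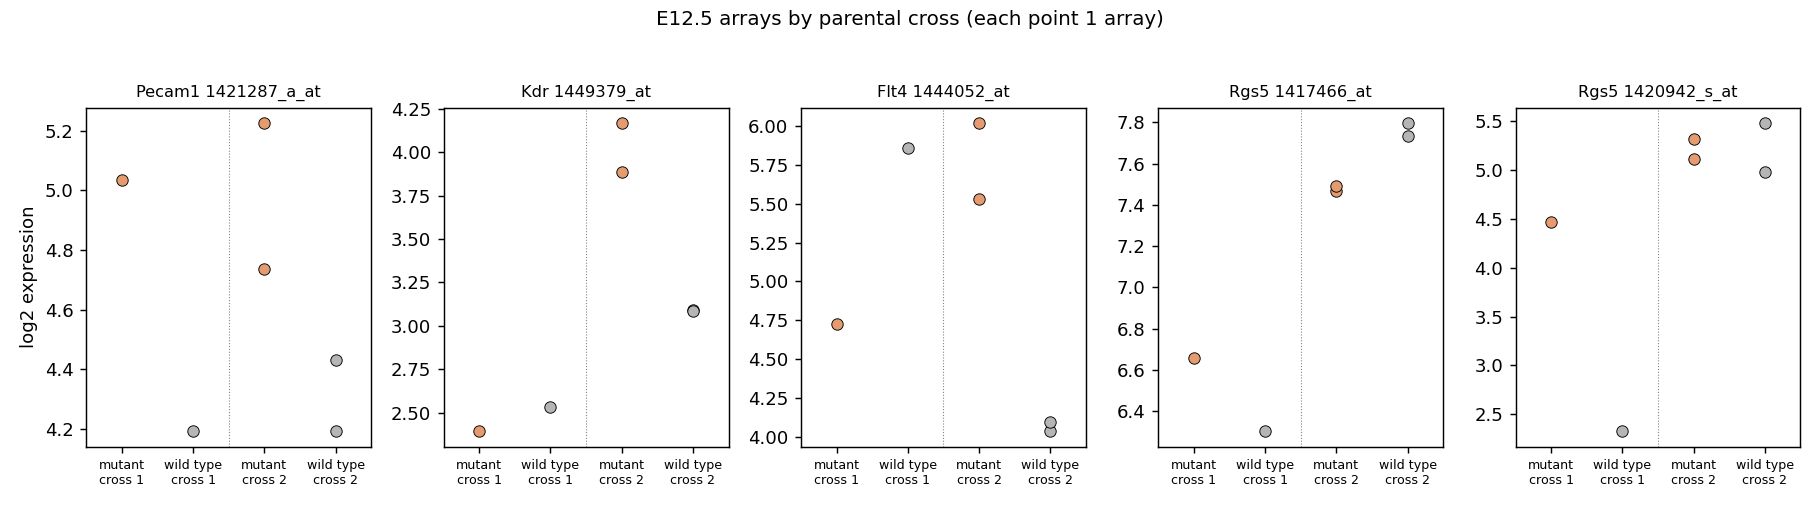
Log2 expression (y axis) of 5 endothelial and pericyte probe sets in the E12.5 arrays, split by parental cross and genotype, each point 1 array. Pecam1 is higher in mutants in both crosses, Flt4 and Kdr have the opposite order in the 2 crosses, and both Rgs5 probe sets are lower in the first cross than in the second.

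Slc2a1 encodes the glucose transporter GLUT1, which is dense in the endothelium of the blood-brain barrier and is also made by red cells, glia and progenitors. Its 3 probe sets were all tested and ran together over the arrays (r between 0.92 and 0.99). On 1434773_a_at it read 10.75, 10.56 and 10.38 in adult mutants and 10.74, 10.28 and 10.53 in adult wild types. In embryos it read 12.02, 12.0004 and 11.76 in mutants and 12.12, 11.97 and 11.86 in wild types. Every adult lay below every embryo, and the genotypes overlapped at both stages.

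Adult minus embryo, Slc2a1 was 2.56-fold lower in mutants (-1.36, SE 0.15, adjusted p = 4.58e-06) and 2.76-fold lower in wild types (-1.47, adjusted p = 2.35e-06). On 1426599_a_at and 1426600_at the differences were -1.66 and -1.30 in mutants and -1.53 and -0.98 in wild types, all past the test. Mutant effects lay between -0.10 and 0.05 in adults and between -0.06 and 0.23 in embryos. The 95% intervals of the 3 probe sets reached from -0.44 to 0.37 in adults and from -0.38 to 0.57 in embryos. An erythroid list averaged 8.64 to 9.17 in mutant embryos, 8.41 to 9.42 in wild-type embryos, 2.66 to 2.88 in adult mutants and 2.70 to 3.13 in adult wild types. Its part in the stage difference of Slc2a1 was not tested.

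Pdgfrb encodes the PDGF-B receptor through which pericytes are recruited. On 1436970_a_at it read 8.86, 8.68 and 8.62 in adult mutants, against 8.33, 8.20 and 8.44 in adult wild types. The mutants were all higher, by a difference of 0.40 (SE 0.12, 95% interval 0.14 to 0.65), or 1.32-fold, with an unadjusted p of 0.00583 and an adjusted p of 0.826 that missed the threshold. Within the age pairs the difference was 0.53, 0.49 and 0.17, and without adult mutant 3 it was 0.45. Without adult mutant 1, which had the largest actin 3′ to 5′ difference, it was 0.33. Whether RNA quality had a part in it was not tested. Mutant embryos read 8.85, 8.85 and 8.59 and wild-type embryos 8.74, 8.85 and 8.86, which overlapped (-0.05, 95% interval -0.31 to 0.20).

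The mutant effect on this Pdgfrb probe set was 0.45 larger in adults than in embryos (SE 0.16, with an unadjusted p of 0.0190 and an adjusted p of 0.915). Adult wild types were 1.41-fold below wild-type embryos (-0.49, adjusted p = 0.00212), while in mutants adult minus embryo was -0.04 (95% interval -0.30 to 0.21, adjusted p = 0.740). The second probe set, 1417148_at, read 4.11, 4.07 and 4.67 in adult mutants against 3.95, 3.95 and 3.88 in adult wild types, a difference of 0.36 (95% interval -0.06 to 0.77, adjusted p = 1.00). Without adult mutant 3, the array with the high choroid plexus list, it was 0.16. This second probe set lay near the filter, which it would not have passed without the adult mutants, and 5 arrays shared the value 3.95. Over the 12 arrays it did not follow the first (r = -0.13).

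Rgs5 encodes a regulator of G-protein signalling that is a standard mark of pericytes. Of its 4 probe sets, 3 were tested, and these ran together over the arrays (r between 0.95 and 0.99). On 1417466_at Rgs5 read 10.81, 10.77 and 10.35 in adult mutants and 10.27, 10.29 and 10.05 in adult wild types. In embryos it read 6.66, 7.47 and 7.49 in mutants and 6.30, 7.73 and 7.80 in wild types. Every adult was above every embryo, and both embryos of the first cross were below the other 4.

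Adult minus embryo, Rgs5 was 10.8-fold higher in mutants (3.44, SE 0.36, adjusted p = 3.91e-06) and 7.59-fold higher in wild types (2.92, SE 0.36, adjusted p = 1.56e-05). Probe sets 1420941_at and 1420942_s_at gave 2.39 and 2.59 in mutants and 2.16 and 3.38 in wild types. Without the first cross the wild-type difference was 2.44 on 1417466_at and 2.41 on 1420942_s_at, and both stayed past the test. On 1420942_s_at wild-type embryo 1 read 2.32, against 4.98 and 5.48 in the other wild-type embryos.

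In adults all mutants exceeded all wild types for Rgs5 on 1417466_at (difference 0.44, SE 0.36, 95% interval -0.36 to 1.24) and on 1420941_at, which read 9.90, 10.02 and 9.67 in mutants against 9.59, 9.66 and 9.49 in wild types (0.28, interval -0.44 to 1.00). Both adjusted p values were 1.00. Without adult mutant 1, which had the largest actin 3′ to 5′ difference, the differences were 0.36 and 0.27. Whether RNA quality had a part in them was not tested. The SD of 1417466_at was 0.26 in adult mutants, 0.13 in adult wild types, 0.47 in mutant embryos and 0.85 in wild-type embryos, and the fit shares 1 spread over the 4 groups. On 1420942_s_at the adult difference was -0.09 (interval -1.47 to 1.29). Embryonic mutant differences of the 3 tested probe sets were -0.07, 0.06 and 0.71, none past the test. Within crosses, 1420942_s_at gave 2.15 in the first and -0.02 in the second, and without wild-type embryo 1 the difference over both was -0.26. Probe set 1420940_x_at, which did not pass the filter, stayed between 3.15 and 4.25 on all arrays.

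**Figure D4:**
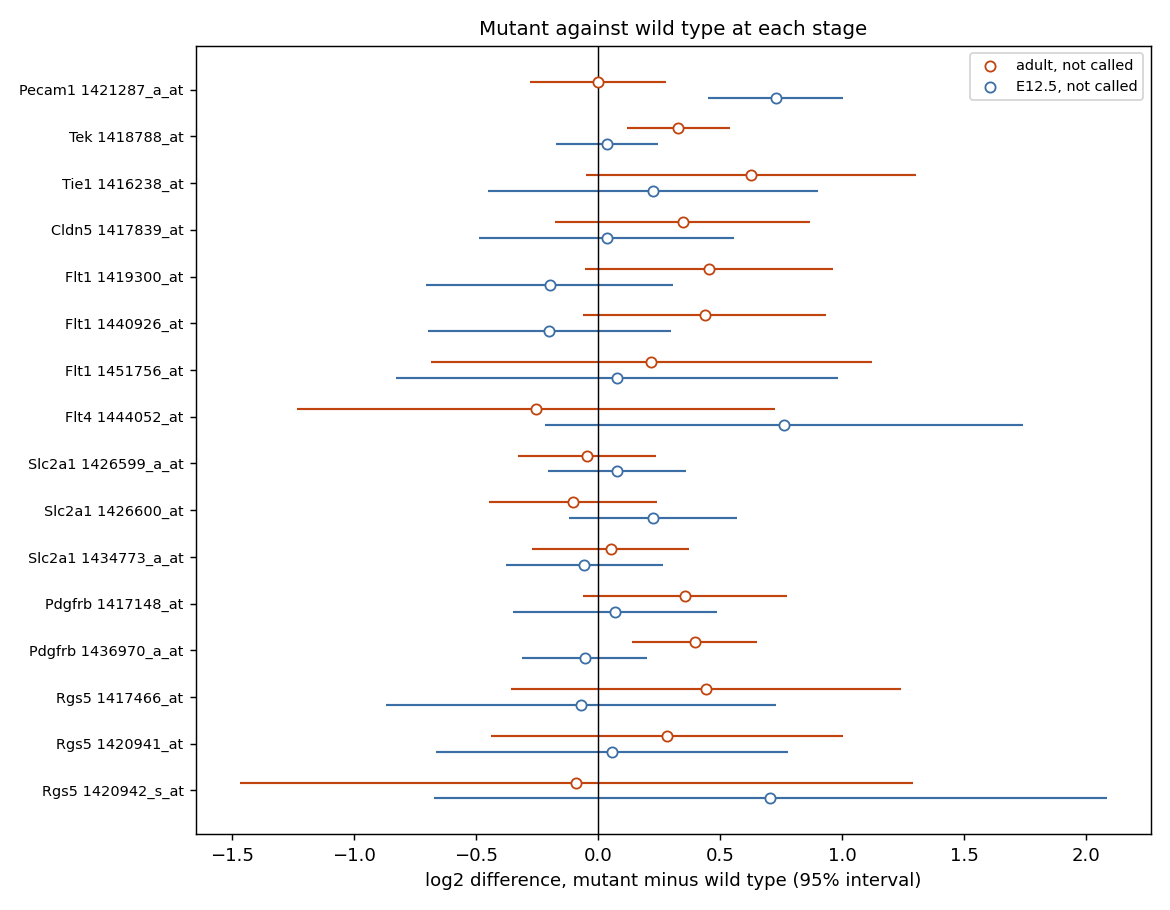
Log2 difference, mutant minus wild type (x axis), for the 16 tested probe sets, in adult cortex and in E12.5 telencephalon. Points are estimates, lines are 95% intervals and open points did not pass the test. The adult intervals of Tek and of Pdgfrb 1436970_a_at and the E12.5 interval of Pecam1 lie above 0 before adjustment, and the intervals of all others include 0.

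Other genes of the vessel pathways were taken from lists, and none of them passed the test between mutants and wild types at either stage. Over all tested probe sets 55.2% of mutant differences were above 0 in adults and 47.3% in embryos, and adult minus embryo in wild types 35.7% were called higher and 43.5% lower. Of 17 tested probe sets of VEGF, angiopoietin and PDGF ligands and co-receptors, 9 differences were above 0 in adult mutants, near the share of all, and 11 in mutant embryos. Adult minus embryo in wild types, 5 were higher and 9 lower, beside the 35.7% and 43.5% of all. Vegfc, a ligand of Flt4, averaged 5.43 and 5.04 in adult mutants and wild types and 9.81 and 9.69 in mutant and wild-type embryos (wild types -4.65, adjusted p = 1.25e-09). Nrp2, a co-receptor for it, fell by 2.35 in wild types, and Ptprb, a phosphatase that acts on Tek, was 2.18 higher. Of the 12 genes of this list 8 were tested. Vegfd, Pgf and Angpt1 were over log2 4 on no array, each by its probe set with the highest mean.

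Among 23 tested probe sets of other endothelial genes, 16 differences were above 0 in adult mutants and 16 in mutant embryos, beside 55.2% and 47.3% of all. In wild types 4 were higher in adults, beside 35.7% of all, and 10 lower, at the 43.5% of all. Ecscr, an endothelial surface protein, fell by 2.91 in adult wild types against wild-type embryos. Fli1, an ETS factor, fell by 2.59, and Sox7 was 2.53 lower, a difference set against 2.20 on every adult array. Of the 25 genes of this list 18 were tested. Robo4, Dll4 and Esm1 were over log2 4 on no array, each by its probe set with the highest mean.

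Of 16 tested probe sets of blood-brain barrier genes, 5 were higher and 6 lower in adult wild types than in wild-type embryos. These shares are near the 35.7% and 43.5% of all. Counted with 1 probe set per gene, 4 genes were higher and 6 lower of 14, with a median of -0.30 beside -0.14 over all tested probe sets. Of the mutant differences 10 were above 0 in adults and 7 in embryos, beside 55.2% and 47.3% of all. The 3 genes with the largest stage difference in the list were all higher in adults, unlike most of its called genes. Slco1c1, a thyroxine transporter, averaged 9.64 and 9.61 in adult mutants and wild types and 3.29 and 3.15 in mutant and wild-type embryos, a difference of 6.46 in wild types (adjusted p = 3.25e-09). Slco1a4, an organic anion transporter, was 5.35 higher in adult wild types, and Abcb1a, which encodes the efflux pump P-glycoprotein, was 3.89 higher. All 3 were under the level of the filter on every embryonic array and passed it through the adults alone, so the sizes of these differences depend on values near the lowest of the arrays.

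Of 14 tested probe sets of other pericyte and mural genes, 11 differences were above 0 in adult mutants and 12 in mutant embryos, beside 55.2% and 47.3% of all. The median over the 10 genes tested was 0.18 in adults and 0.16 in embryos, beside 0.02 and -0.01 over all tested probe sets, and none passed the test. In wild types 5 were higher in adults, at the 35.7% of all, and 8 lower, beside 43.5%. Tbx18, a transcription factor of mural cells, fell by 3.33, and Notch3, a receptor of mural cells, fell by 3.32. Vtn, which encodes vitronectin and is made by brain pericytes, was 2.12 higher in adults, the direction of Rgs5. Kcnj8, Anpep, Des and Ndufa4l2 passed the filter on no probe set.

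Markers of neighbouring cells moved with stage as well. Of smooth muscle genes, Acta2 was 2.42 and Tagln 1.14 higher in adult wild types than in wild-type embryos, and Myh11, Cnn1 and Actg2 passed on no probe set. Of 14 microglial probe sets 13 were higher in adult wild types, beside 35.7% of all. Of 10 meningeal ones 8 were lower, beside 43.5% of all. The microglial P2ry12 and C1qa were over the level of the filter on every adult array and on no embryonic one. Csf1r was over it on 5 embryonic arrays as well. The meningeal Col3a1 and Lum were over it on every embryonic array and on no adult one, and Crabp2 also on 3 adult arrays. P2ry12, C1qa, Col3a1 and Lum were tested because of the stage in which they were high, so the filter partly fixed these counts. Means of the neuron list were 12.56 to 12.70 in adult mutants, 12.51 to 12.67 in adult wild types, 7.38 to 8.07 in mutant embryos and 7.46 to 8.01 in wild-type embryos. The part of such shifts in the stage differences of the vessel genes was not tested.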

How the data were processed

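The deposited values are log2 expression values per probe set and array, which the authors made with GCRMA, per the submitters' processing notes. GCRMA corrects background by probe sequence. The sources used here give neither its version nor its settings. Per the labels' protocols, RNA went through 2 rounds of amplification and biotin labelling. The values were used as deposited. The lowest was 2.19 on every array, 29.4% to 30.9% of an array's values stood within 0.01 of it, and array medians were 3.64 to 3.74. The arrays carry no counts, and their number limits the precision.

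Probe sets were named from the platform annotation, with 34741 symbols updated through the gene ID. Of all probe sets, 34945 had 1 symbol, 932 several and 9160 none, and 64 were controls. Those with 1 symbol and a log2 value over 4 on at least 3 arrays, 20292 in all, were fitted with limma 3.58.1 in R 4.3.3 (lmFit and eBayes on the 4 group means over 12 arrays, checked on simulated data). P-values were two-sided and adjusted by Benjamini-Hochberg over all of them, with calls at an adjusted p under 0.05.

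The members and gene lists were chosen with earlier results of these data known. The named genes are every member probe set, every Kat6b probe set and, of each other list, members past a mutant test and the 3 with the largest stage difference in wild types. Some of those are given only as counts. Age pairs of adults and crosses of embryos entered an alternative fit as a block, since embryos of a cross share parents. Across probe sets, array deviations from their group mean correlated at 0.134 to 0.454 within a cross and -0.304 to -0.226 across crosses. In adults they correlated at 0.00634 to 0.217 within an age pair and -0.275 to 0.186 across pairs, and these ranges overlap.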

Additional observations from a re-analysis of the deposited data

Results flagged for a closer look

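Kdr, which did not pass the filter on low values and entered no comparison, still read higher in embryos than in adults. Its probe set 1449379_at stood at the lowest value of the arrays, 2.19, on all 6 adult arrays and between 2.39 and 4.17 on the embryonic ones. The adult mean minus the embryonic mean was -1.003 on the log2 scale. It stands here because it is a signal outside the tested data, and the difference, which is measured from the lowest value of the arrays, was not tested.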

How the results depend on the processing

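No member was called between adult mutants and wild types, or for the difference between stages, under any alternative run. For mutant embryos the count was 1 with the first cross left out (Flt4, 1.71, adjusted p = 0.0111) and 0 to 1 with each array left out in turn, the 1 being Pecam1 without mutant embryo 3 (0.86, adjusted p = 0.0325). With the crosses and age pairs as a replicate block the count was 0 in adults and 0 in embryos, and the Pecam1 difference of 0.73 had an adjusted p of 0.327. The block was fitted only for the effects of the mutation, where no member was called without it either, so it had no member call to lose. Over all probe sets the adult mutant calls were 5 without the block and 1 with it. Adult minus embryo, the count was 7 in wild types with 1 probe set per gene, of 9 genes, and 12 to 13 with each array left out. In mutants it was 8 under the stricter filter (log2 over 6), which tested 10 member probe sets, 7 with 1 probe set per gene, and 13 to 14 with each array left out. Tek in wild types was not called under median centring (-0.24, adjusted p = 0.0557). It was also not called without mutant embryo 1, whose array has its own run label (-0.23, adjusted p = 0.0532). That fit is 1 of those with an array left out. Without mutant embryo 3, Pdgfrb 1417148_at was called in mutants (0.52, adjusted p = 0.0358). Of 698 single values under the other settings 695 kept their side of the threshold, and of 960 with an array left out 950 did. In none did a called value change sign. Signal near the lowest value limits Pecam1, Kdr, Tie1, Flt1 1419300_at and the weaker probe sets.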

Other observations

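The genes whose course over the 12 arrays was most like the mean of 9 members (each scaled to mean 0 and SD 1, with 1 probe set per gene) were Mterf2 (Pearson's r = 0.88), Cdk16 (0.81), D430042O09Rik (0.79), Stox2 (0.79) and Trio (0.78), among 20276 other tested probe sets. On deviations from the group mean, in which stage and genotype are taken out, they were Ccser1 (0.97), Cpeb3 (0.96), Hmgn3 (0.96), Pde8a (0.95) and Rbms3 (0.95). These are the highest of many correlations over few arrays that share run, stage and cross, and no p is given.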
